A study of Mus musculus with 27 samples.

Results

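The S100 genes encode small calcium-binding proteins, and 8 of them were followed here through 27 RNA sequencing libraries of 4T1 cells, a highly metastatic mouse mammary carcinoma line. The genes are S100a1, S100a4, S100a6, S100a10, S100a11, S100a13, S100a14 and S100a16, taken by name from a table of 55401 genes. They were chosen from results of these same libraries, among them the low S100a4 level in the Mff clones, so every value of these genes in the Mff clones against parental cells is given as a description without a test. The table names 18 S100 genes in all, which leaves 10 outside the chosen 8.

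Polyadenylated RNA was measured in 9 groups of 3 libraries. One arm compared unedited parental 4T1 cells with 6 CRISPR-Cas9 knockout clones, 2 per gene, of 3 genes that act in mitochondrial division. Clones gs1B8 and gs2_B4 lack Drp1 (gene Dnm1l), the GTPase that constricts mitochondria, clones gs1_B11 and gs2_F6 lack Fis1, and clones gs1_B4 and gs1_C8 lack Mff, the latter 2 genes encoding proteins of the outer mitochondrial membrane. Each of these groups is a single clone, and the sources used here do not say which code is the first clone of a genotype. The drug arm held 4T1 cells kept for 3 days with leflunomide, an inhibitor of pyrimidine synthesis (group Leflu), or with its vehicle DMSO. The labels do not say whether the 3 libraries of a group came from separate cultures, and the spread behind each p-value may therefore be technical.

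S100 proteins carry a pair of EF-hand calcium-binding loops and act mostly as dimers. Calcium opens a surface by which they hold other proteins, such as annexins, non-muscle myosin and p53. S100A4 binds the heavy chain of non-muscle myosin IIA and is known for promoting motility and metastasis of mammary carcinoma cells. S100A6 binds the calcyclin-binding protein and annexins, S100A10 forms a tetramer with annexin A2 and needs no calcium to do so, and S100A11 binds annexin A1. S100A1 is best known from heart and skeletal muscle, S100A13 takes part in the release of FGF1 and interleukin 1 alpha, and S100A14 is found mainly in epithelia. Most S100 genes lie side by side in the epidermal differentiation complex.

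Each clone or parental library held 20715428 to 31295937 counts, and each DMSO or leflunomide library 18492020 to 24658747. DMSO replicate 3 had 25.4% of its counts in ribosomal RNA genes, against 2.09% to 6.40% in the other 26 libraries. The targeted transcripts were lower but present in their own clones: Dnm1l at 40.4 to 70.7 CPM (counts scaled to a common library total) against 213.0 to 222.0 in parental cells, Fis1 at 16.1 to 21.3 against 43.9 to 51.7, and Mff at 40.5 to 47.9 against 79.4 to 89.9. The 10 epithelial markers summed to 2033 to 3919 CPM per library. One of them, Cldn7, was at 12.4 to 12.9 CPM in parental cells and at 0.0 to 0.0363 CPM in the 18 clone libraries. S100a4 is also made by fibroblasts and leukocytes, and 7 of 8 fibroblast markers and 6 of 9 leukocyte markers stayed under 1 CPM in every library, with Col3a1, Lum, Thy1, Adgre1 and Cd3e at 0 counts and Ptprc at no more than 0.149 CPM in any group. The 9 leukocyte markers summed to 14.82 to 16.76 CPM in parental libraries and 17.78 to 28.43 CPM in clone libraries, with Cd14 called higher and Csf1r called lower in both Drp1 and both Fis1 clones, and their part in the S100 values was not tested. All 4 endothelial markers were under 1 CPM.

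All 8 genes lie on chromosome 3 (GRCm38), and 7 of the 8 are on the plus strand, S100a1 being on the minus strand. In order along the chromosome they are S100a1 (ENSMUSG00000044080.9, 90511034 to 90514392), S100a13 (ENSMUSG00000042312.10, 90514435 to 90524581), S100a14 (ENSMUSG00000042306.11, 90526856 to 90528837), S100a16 (ENSMUSG00000074457.10, 90537254 to 90543151), S100a4 (ENSMUSG00000001020.8, 90603771 to 90606045) and S100a6 (ENSMUSG00000001025.8, 90612882 to 90624181). S100a11 (ENSMUSG00000027907.4, 93520488 to 93526287) and S100a10 (ENSMUSG00000041959.14, 93555080 to 93564643) lie apart from the others, 3009.5 and 3044.0 kb beyond the start of S100a1.

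The promoters of 4 members are shown. S100a4 had the widest range of the abundant members, S100a6 and S100a11 are abundant members with narrow ranges, and S100a13 shares part of its promoter with S100a1. Whether the motifs bear on how the genes moved was not tested. Each sequence runs 5′ to 3′ from 250 bases before to 50 bases after the RefSeq start site (GRCm38.p6). Capitals mark every match, on either strand, to TATAAA (the TATA box), TGANTCA (an AP-1 site), GGGCGG (a GC box) or CTTTGAT (a TCF/LEF site). The RefSeq table held 6 of the 8 members, without S100a10 and S100a14.
S100a4, chr3:90603520-90603819, plus strand: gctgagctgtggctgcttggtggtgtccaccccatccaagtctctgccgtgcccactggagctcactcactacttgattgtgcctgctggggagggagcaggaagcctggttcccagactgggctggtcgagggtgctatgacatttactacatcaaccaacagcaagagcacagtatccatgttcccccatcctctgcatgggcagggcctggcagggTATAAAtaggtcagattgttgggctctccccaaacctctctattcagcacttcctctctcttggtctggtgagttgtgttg
S100a6, chr3:90612644-90612943, plus strand: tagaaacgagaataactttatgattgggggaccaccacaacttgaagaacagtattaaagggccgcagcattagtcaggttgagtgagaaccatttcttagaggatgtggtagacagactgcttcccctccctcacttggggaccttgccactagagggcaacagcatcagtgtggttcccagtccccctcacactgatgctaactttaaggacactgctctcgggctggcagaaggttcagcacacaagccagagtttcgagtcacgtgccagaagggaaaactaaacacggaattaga
S100a11, chr3:93520246-93520545, plus strand: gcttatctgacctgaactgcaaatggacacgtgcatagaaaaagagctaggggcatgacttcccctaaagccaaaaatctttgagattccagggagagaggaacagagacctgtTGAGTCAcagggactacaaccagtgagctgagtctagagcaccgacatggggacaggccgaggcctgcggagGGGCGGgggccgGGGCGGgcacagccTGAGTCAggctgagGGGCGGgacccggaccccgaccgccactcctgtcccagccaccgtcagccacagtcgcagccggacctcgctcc
S100a13, chr3:90514185-90514484, plus strand: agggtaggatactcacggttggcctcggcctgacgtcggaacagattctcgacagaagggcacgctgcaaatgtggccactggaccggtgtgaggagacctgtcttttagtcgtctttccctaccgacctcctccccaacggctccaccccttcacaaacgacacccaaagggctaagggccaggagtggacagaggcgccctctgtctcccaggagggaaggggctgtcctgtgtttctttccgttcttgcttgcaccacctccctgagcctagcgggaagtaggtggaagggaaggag

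The S100a4 promoter held 1 TATAAA, beginning 31 bases upstream of the start site, and 2 CG dinucleotides. TATAAA was present in 13.6% of all 32851 RefSeq promoters of this length, whose median CG count was 7 (quartiles 3 and 20). The S100a6 promoter had 6 CG and none of the capitalised motifs. The S100a11 promoter had 15 CG, TGANTCA 136 and 38 bases upstream and GGGCGG 64, 52 and 24 bases upstream. These motifs occurred in 7.81% (TGANTCA) and 35.7% (GGGCGG) of all promoters. CTTTGAT, present in 3.73% of promoters, matched none of these 4 sequences. CANNTG, the E-box, was also searched: it is in 72.3% of promoters, matched S100a6 and S100a11 with 2 each and S100a13 with 1, and had no match in the S100a4 sequence. GGAAANN, found in 61.1% of promoters, matched S100a6 with 1 and S100a13 with 2. S100a1 and S100a13 are read in opposite directions from start sites at 90514330 and 90514435, and their promoters share 204 bases (90514281 to 90514484). A match is a run of letters and does not show that a factor bound there.

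Per kilobase of transcript, which allows genes to be compared, 4 members were abundant and 4 were low. In parental cells S100a6 stood at 2395 CPM per kb, S100a11 at 1464, S100a4 at 1262 and S100a10 at 1133. S100a1 stood at 13.4, S100a13 at 9.57, S100a14 at 2.52 and S100a16 at 0.157 CPM per kb. The order among the abundant members depended on the length used: over all libraries S100a6 had a mean of 1942 CPM per kb of its longest transcript and 1039 per kb of merged exons, S100a10 had 986.2 and 557.4, S100a4 had 910.1 and 776.1, and S100a11 had 1398 with either length. Of the 10 S100 genes outside the 8, only S100a3 and S100a7a reached 1 CPM in a group. The other 8 of these, among them the neutrophil genes S100a8 and S100a9, stayed below 1 CPM in all groups. All values from here on are CPM with no length correction, so they compare groups, not genes.

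S100a4 varied more between groups than any other abundant member, with a 17.3-fold span from the lowest to the highest group mean. The low end is the Mff clone gs1_C8, and the low S100a4 level in the Mff clones helped to choose these genes. Outside the Mff clones its group means ran from 223.4 CPM in gs2_B4 to 1114 CPM in gs2_F6. Spans of the 5 other members above 1 CPM in every group were 1.80-fold (S100a10) to 2.00-fold (S100a6). The 3 parental libraries held S100a4 at 603.9, 570.9 and 711.2 CPM (628.7 ± 73.4, SD, n = 3). The Drp1 clone gs1B8 held 693.3, 690.5 and 629.6 CPM, which overlapped the parental libraries. The other Drp1 clone, gs2_B4, held 230.2, 240.2 and 199.8 CPM, all below every parental library. The Fis1 clones lay on opposite sides of parental cells: gs1_B11 held 271.0, 263.9 and 271.8 CPM and gs2_F6 held 1176, 1087 and 1079 CPM. The Mff clones were the lowest of the 9 groups, with 89.56, 83.82 and 55.04 CPM in gs1_B4 and 67.3, 64.4 and 61.83 CPM in gs1_C8, and those 2 groups overlapped each other.

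**Figure D1:**
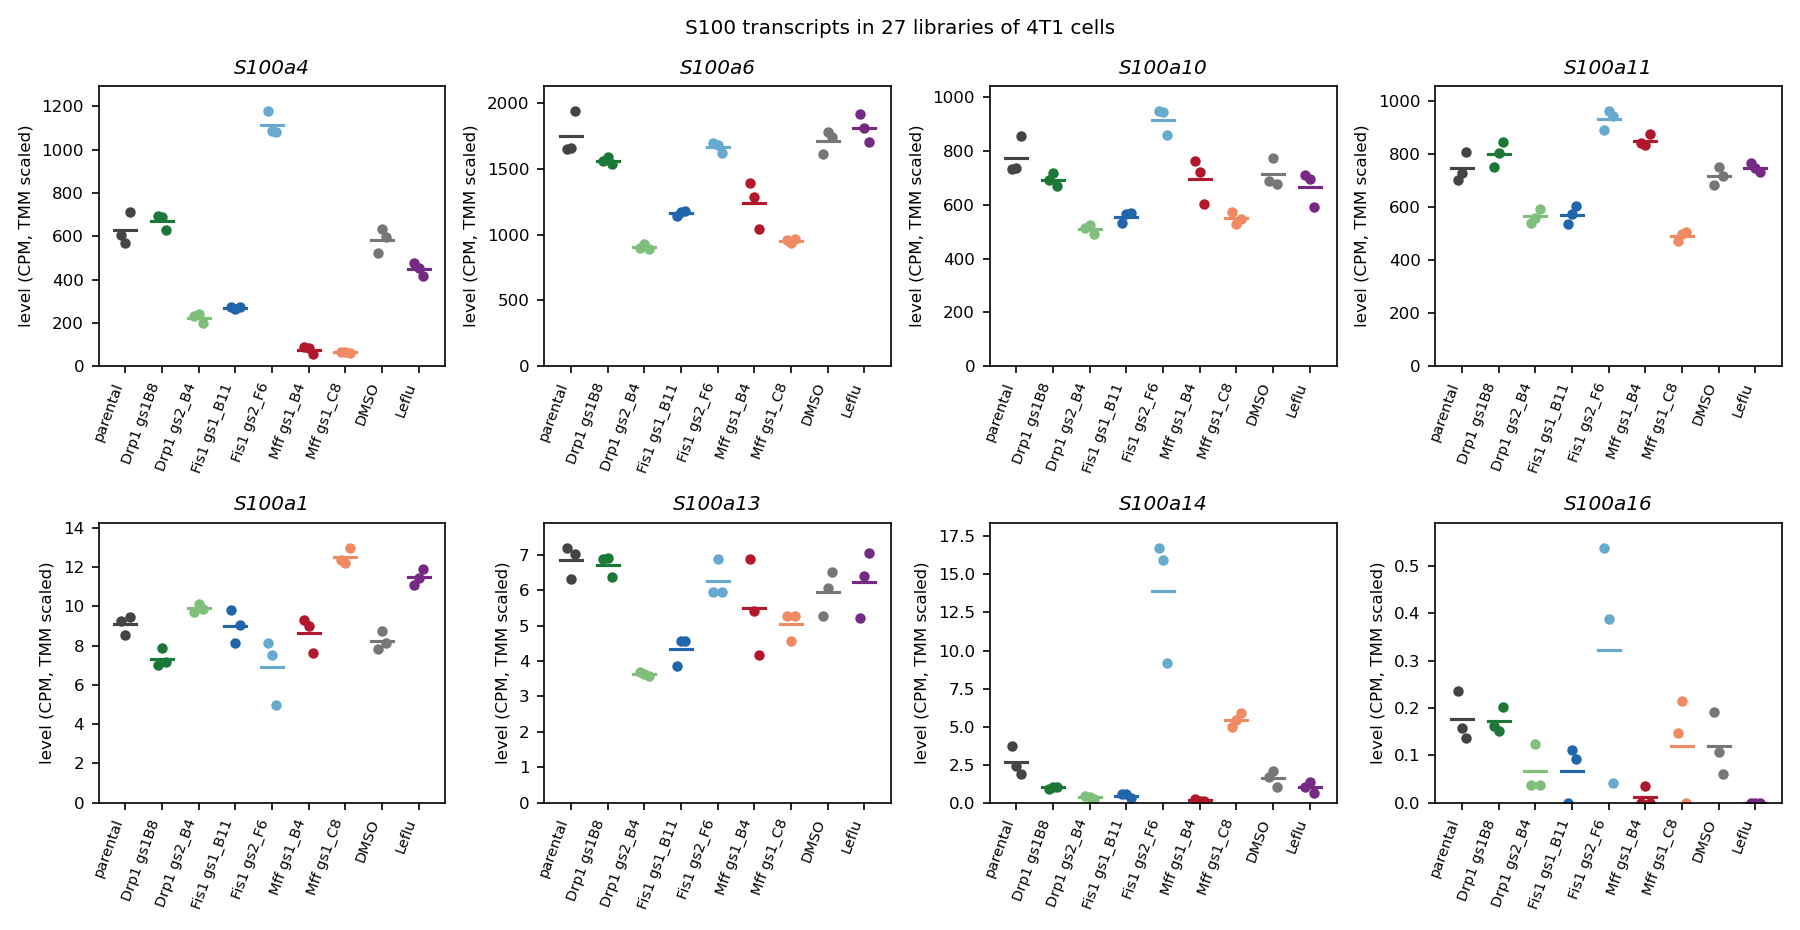
Level of each of 8 S100 genes (CPM, TMM scaled, linear axes from 0, a separate scale for each gene) in 9 groups of 4T1 cells; points are the 3 libraries of a group and bars their mean. S100a4 runs from 64.51 CPM (mean of gs1_C8) to 1114 CPM (gs2_F6), while S100a6, S100a10 and S100a11 stay within 2.00-fold.

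Against parental cells, S100a4 fell by 1.51 ± 0.11 (SE) on the log2 scale in gs2_B4 (adjusted p = 1.9e-09) and by 1.22 ± 0.11 in gs1_B11 (adjusted p = 4.9e-08), and rose by 0.81 ± 0.11 in gs2_F6 (adjusted p = 1.4e-05). In gs1B8 its log2 fold change was 0.08 ± 0.11 (adjusted p = 0.64). Expressed as a share of the parental level, S100a4 stood at 35.2% in gs2_B4, 42.9% in gs1_B11 and 176.0% in gs2_F6. The corresponding descriptions for the Mff clones were 11.9% in gs1_B4 (log2 -3.08 ± 0.12) and 10.2% in gs1_C8 (log2 -3.295 ± 0.12). In these bulk samples fewer cells making a transcript and less transcript per cell cannot be told apart. A readthrough gene of the same strand, Gm42674, overlaps S100a4, and its reads could be split between the 2 genes. It was at 0.0 to 4.648 CPM per library, and adding its counts left the gs1_B4 log2 ratio at -3.03 in place of -3.046, the widest move over the 6 clones. Ordered by group mean, S100a4 ran from gs2_F6 through gs1B8, parental, DMSO, Leflu, gs1_B11, gs2_B4 and gs1_B4 to gs1_C8. Neighbours in that order whose libraries overlapped were gs1B8 and parental, parental and DMSO, and the 2 Mff clones.

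S100a6, S100a10 and S100a11, the abundant partners of annexins and calcyclin-binding protein, were lower in the same pair of clones, gs2_B4 and gs1_B11, in which S100a4 was lower. S100a6 was at 1654, 1660 and 1939 CPM in the parental libraries, at 896.6, 929.1 and 889.1 in gs2_B4 and at 1146, 1176 and 1178 in gs1_B11. Both clones lay wholly below parental cells, with log2 fold changes of -0.97 ± 0.07 (adjusted p = 1e-09) and -0.58 ± 0.07 (adjusted p = 1.4e-06). S100a10 fell by 0.62 ± 0.07 in gs2_B4 (adjusted p = 4.3e-07) and by 0.48 ± 0.07 in gs1_B11 (adjusted p = 1.4e-05), from a parental 776.2 ± 70.9 CPM. S100a11 fell by 0.42 ± 0.06 (adjusted p = 4.2e-06) and 0.38 ± 0.06 (adjusted p = 1.6e-05) in these clones, from 747.9 ± 55.2 CPM (SD, n = 3).

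The changes of these 3 genes were smaller in the other Drp1 clone and the other Fis1 clone. In gs1B8 none of the 3 passed the test (adjusted p of 0.074 for S100a6, 0.071 for S100a10 and 0.27 for S100a11). Without the low-count filter S100a6 (-0.16) and S100a10 (-0.16) were called lower there, each with an adjusted p of 0.02. In gs2_F6 S100a11 rose by 0.31 ± 0.06 (adjusted p = 0.00031), with 890.6, 961.2 and 945.8 CPM against 703.8, 730.1 and 809.9 in parental cells. S100a10 rose by 0.23 ± 0.07 there (adjusted p = 0.017). It did not pass without parental replicate 1 (adjusted p = 0.074) or 2 (0.071), nor without gs2_F6 replicate 1 (0.063) or 2 (0.067). S100a6 in gs2_F6 overlapped parental cells (log2 -0.08 ± 0.07, adjusted p = 0.43).

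The Mff clones differed from each other in these genes. S100a11 was at 840.5, 833.6 and 874.4 CPM in gs1_B4, all above the parental libraries, and at 471.4, 498.7 and 506.1 CPM in gs1_C8, all below them. S100a6 was below parental cells in both, with means of 1241 ± 179 CPM in gs1_B4 and 956.0 ± 19.4 CPM in gs1_C8. S100a10 overlapped parental cells in gs1_B4 (602.3 to 764.4 CPM) and lay below them in gs1_C8 (529.5 to 575.1 CPM).

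S100a1 and S100a13, which are read from the shared promoter printed above, did not follow each other. S100a13 fell in gs2_B4 from 7.195, 6.31 and 7.02 CPM to 3.684, 3.637 and 3.577 CPM (log2 -0.93 ± 0.14, adjusted p = 1.2e-05). It also fell in gs1_B11, to 3.871, 4.57 and 4.57 CPM (log2 -0.65 ± 0.14, adjusted p = 0.00055). S100a1 in those clones had log2 fold changes of 0.11 ± 0.12 (adjusted p = 0.47) and -0.01 ± 0.12 (adjusted p = 0.96). In gs2_F6 S100a1 was at 8.119, 7.544 and 4.999 CPM, below the parental 9.231, 8.558 and 9.465 CPM, with a log2 fold change of -0.41 ± 0.12 (adjusted p = 0.016) that rested on single libraries. It lost its call without gs2_F6 replicate 3 (-0.23, adjusted p = 0.082) and without parental replicate 1 (adjusted p = 0.056) or 3 (adjusted p = 0.052). In gs1_C8 S100a1 was at 12.38, 12.2 and 12.97 CPM, the highest of the 9 groups, while S100a13 there was at 5.275, 4.556 and 5.277 CPM, below parental cells.

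S100a14, the epithelial member next in line on the chromosome, had the largest differences of any tested member between the 2 Fis1 clones and between the 2 Mff clones, on low counts. Parental libraries held 3.74, 2.406 and 1.857 CPM, from 79, 61 and 41 counts. It was lower in both Drp1 clones, at 0.8951 to 1.059 CPM in gs1B8 (log2 -1.41 ± 0.29, adjusted p = 0.00073) and at 0.2581 to 0.4094 CPM in gs2_B4 (log2 -2.94 ± 0.37, adjusted p = 4e-07). The Fis1 clones again lay on opposite sides: gs1_B11 held 0.5412, 0.5897 and 0.2742 CPM (log2 -2.46 ± 0.35, adjusted p = 3.1e-06) and gs2_F6 held 16.74, 15.93 and 9.158 CPM (log2 2.38 ± 0.23, adjusted p = 1.6e-07). The Mff clones did so too, with 6, 3 and 3 counts in gs1_B4 and 136, 152 and 134 counts in gs1_C8, or means of 0.152 and 5.443 CPM. S100a16 reached at most 13 counts in a library and 79 counts over all libraries, was at 0 counts in 7 libraries including all 3 of Leflu, and was too low to be tested in either arm.

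**Figure D2:**
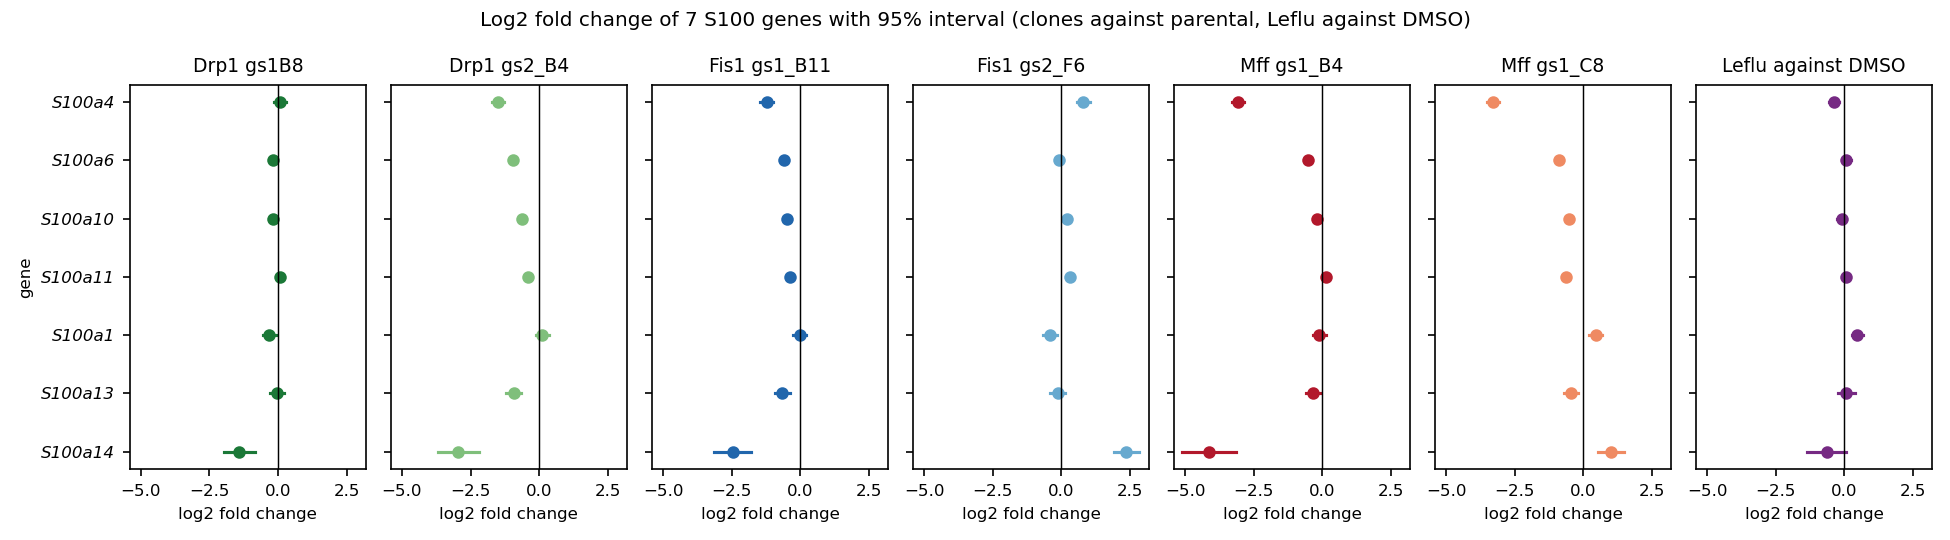
Log2 fold change (points) with its 95% interval (bars) of 7 S100 genes, for each of 6 clones against parental cells and for Leflu against DMSO, on a common axis. S100a4 lies left of 0 in 4 of the 6 clones, and S100a14 is at 2.38 in gs2_F6 and at -2.46 in gs1_B11.

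Counted over the 7 members that passed the low-count filter, which S100a16 did not, gs2_B4 and gs1_B11 stood apart from the other Drp1 and Fis1 clones. In gs2_B4 6 members were called lower and 0 higher, where 26.3% of all 13940 tested genes were called lower and 24.1% higher. In gs1_B11 6 were called lower and 0 higher, against 25.9% lower and 21.4% higher over all genes. In gs1B8 only S100a14 was called, lower, against 17.4% of genes called lower and 12.1% higher. In gs2_F6 S100a4, S100a10, S100a11 and S100a14 were called higher and S100a1 lower, against 13.1% higher and 18.2% lower. The median log2 fold change of the 7 members was -0.173 in gs1B8, -0.925 in gs2_B4, -0.583 in gs1_B11 and 0.23 in gs2_F6, where the median of all genes lay between -0.012 and 0.003. The 2 clones of a genotype share the parental libraries. S100a14 was the only member called lower in both Drp1 clones, and none was called higher in both, where 12.1% of genes were called lower in both and 7.94% higher. No member was called with the same sign in both Fis1 clones, where 9.02% of genes were called lower and 5.94% higher.

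In the Mff clones, all 3 libraries of gs1_B4 were above the parental range for 1 member and below it for 3, and 3 members overlapped. In gs1_C8 2 members were above and 5 below. How many of all genes lay outside the parental range in this way was not counted, so these counts say nothing about the members as a set. These contrasts also helped to choose the members. For completeness only, and by another measure, the test called 20.9% of all genes higher and 26.8% lower in gs1_B4. The shares called were 21.5% and 25.2% in gs1_C8, and 7.37% and 11.3% in both clones.

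Clones made to lack the same gene were then compared with each other, a comparison that does not use the parental libraries. Between the Drp1 clones all 7 tested members were called, where 41.0% of all genes were: S100a4 was 3.01-fold lower in gs2_B4 than in gs1B8 (log2 -1.59 ± 0.12, adjusted p = 1.9e-09), and S100a1 was the only one higher (log2 0.43 ± 0.12, adjusted p = 0.0076). Between the Fis1 clones all 7 were again called, where 47.6% of all genes were. S100a4 was 4.10-fold higher in gs2_F6 than in gs1_B11 (log2 2.04 ± 0.11, adjusted p = 3.3e-11) and S100a14 28.7-fold higher (log2 4.84 ± 0.33, adjusted p = 5.8e-11). S100a1 was the only one lower (log2 -0.395 ± 0.12, adjusted p = 0.012), and its call was lost without gs2_F6 replicate 3 (-0.22, adjusted p = 0.069) or gs1_B11 replicate 1 (-0.33, adjusted p = 0.064).

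Between the Mff clones 5 of 7 members were called, where 54.7% of all genes were. S100a14 was 35.6-fold higher in gs1_C8 than in gs1_B4 (log2 5.15 ± 0.49, adjusted p = 2.7e-10), S100a1 was higher by 0.55 ± 0.12 (adjusted p = 0.00047), and S100a11 was lower by a log2 fold change of -0.77 ± 0.06 (adjusted p = 6.8e-10). S100a4 did not pass (log2 -0.22 ± 0.12, adjusted p = 0.14). That outcome turned on gs1_B4 replicate 3, the library at 55.04 CPM: without it the log2 fold change was -0.41 ± 0.09 (adjusted p = 0.00048). It was also called without the low-count filter (-0.23 ± 0.06, adjusted p = 0.00036). S100a4 was chosen partly for its low level in the Mff clones, so its likeness between them is not independent of that choice.

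With the clone as the replicate, 2 for each genotype, no difference between Drp1 and Fis1 knockouts was called in any of the 8 members. The edgeR test on counts summed per clone called 0 of 15513 genes (0.0%), with 318 at an unadjusted p under 0.05 and no member among them. DESeq2 on the same sums called 9 genes and no member. The edgeR test did not call even the targeted genes Dnm1l and Fis1, so its 0 does not show that the members were alike. S100a4 had a log2 difference of -0.63 ± 0.76, Drp1 against Fis1, and in each of these genotypes 1 clone lay below parental cells and 1 did not. Treating the libraries as replicates instead called 5 members, where 5126 of all 13940 tested genes were called. S100a4 was among them at -0.51 ± 0.08 (adjusted p = 4.8e-05), but that fit takes no account of the spread between clones. The Mff sums lay below those of Drp1 and Fis1 for S100a4 by log2 differences of -2.67 ± 0.76 and -3.30 ± 0.76, given without a test.

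With leflunomide only 1 S100 member passed the test. S100a4 was at 520.6, 633.2 and 596.7 CPM with DMSO and at 478.1, 453.2 and 414.9 CPM with leflunomide, so that the groups did not overlap, with a log2 fold change of -0.38 ± 0.09 that did not pass the test (adjusted p = 0.071). It passed with DESeq2 (adjusted p = 0.001), without the low-count filter (0.02) and with all 27 libraries in 1 fit (0.025). S100a1 was the only member called, where 2.79% of the 12603 genes tested were: it was at 7.845, 8.739 and 8.15 CPM with DMSO and at 11.07, 11.44 and 11.92 CPM with leflunomide (log2 0.48 ± 0.10, adjusted p = 0.04995). Its call sat at the threshold and did not hold without DMSO replicate 1 (adjusted p = 0.21), 2 (0.13) or 3 (0.14), without Leflu replicate 1 (0.088) or 2 (0.19), with DESeq2 (0.052) or its size factors (0.052), and without the low-count filter (0.051), while the log2 fold change stayed between 0.44 and 0.52 in these fits. The 5 other tested members overlapped between the groups, with adjusted p of 0.35 (S100a14) to 0.84 (S100a13). Among them S100a14 had the widest error, with a log2 fold change of -0.65 ± 0.36. S100a7a, outside the 8, lay above DMSO in all its leflunomide libraries without passing the test (log2 0.66 ± 0.145, adjusted p = 0.055). Beside these values, the 9 leukocyte markers summed to 10.05 to 13.88 CPM with DMSO and 21.65 to 24.65 CPM with leflunomide, through Csf1r and Cd68, while Adgre1 and Cd3e stayed at 0. The epithelial markers summed to 2633 to 2734 CPM with DMSO and 2033 to 2307 CPM with leflunomide. The part of either in the S100 values was not tested.

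The S100 genes were set beside their neighbours and beside chromosome 3 as a whole, a comparison chosen after the values were seen. In gs2_B4, gs1_B11 and gs1_C8, genes of chromosome 3 were lower as a group. Over 705 tested genes of the chromosome the median log2 fold change was -0.164 in gs2_B4, -0.238 in gs1_B11 and -0.303 in gs1_C8. In gs2_B4 and gs1_B11 42.8% and 51.9% of them were called lower. In gs1B8, gs2_F6 and gs1_B4 the median was 0.055, 0.007 and -0.009, and in gs1B8 and gs2_F6 8.94% and 15.04% were called lower. Chromosome 3 ranked 5, 3 and 2 from the lowest of 20 chromosomes in gs2_B4, gs1_B11 and gs1_C8, and other chromosomes reached medians of -0.729 in gs1_B11 and -0.725 in gs1_B4.

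**Figure D3:**
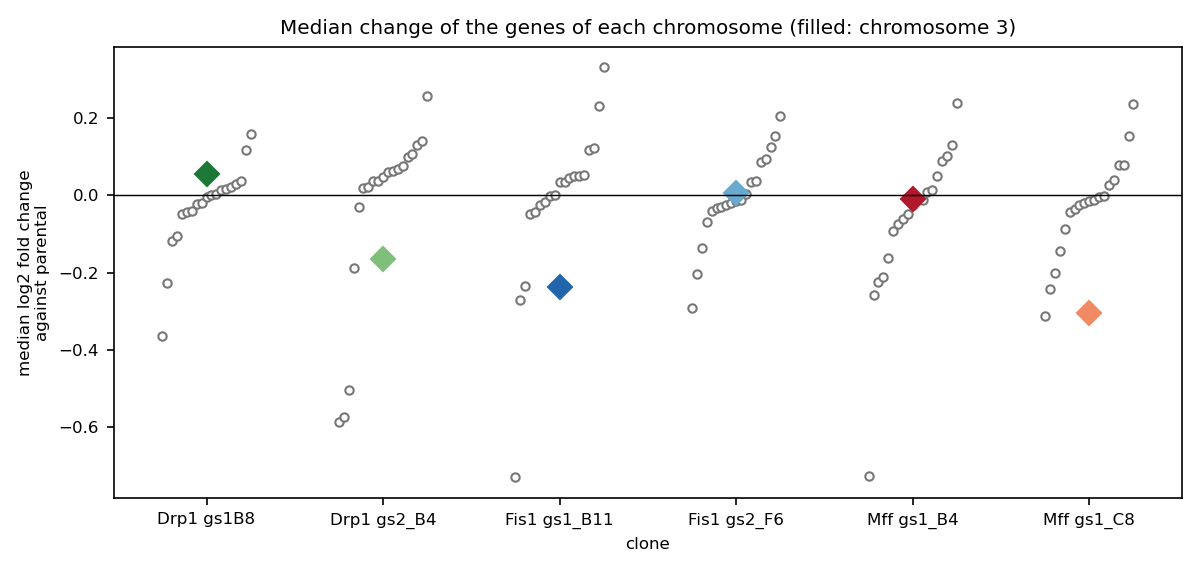
Median log2 fold change against parental cells of the tested genes of each of 20 chromosomes (open circles, in order within a clone; the filled diamond is chromosome 3, placed at the centre) in 6 clones. The diamond lies at -0.164 in gs2_B4, -0.238 in gs1_B11 and -0.303 in gs1_C8, and between -0.009 and 0.055 in the other 3 clones.

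Values were also taken relative to the chromosome 3 median of the same clone, which shifts all members of a clone alike and cannot change their order. With or without that shift, S100a4 was lower by more than S100a6, S100a10 or S100a11 in gs2_B4, gs1_B11 and both Mff clones. S100a4 was chosen partly for its low level in the Mff clones, so its place there restates that choice. The difference of S100a4 from that median was -1.34 in gs2_B4, -0.985 in gs1_B11, -3.07 in gs1_B4, -2.99 in gs1_C8, 0.81 in gs2_F6 and 0.03 in gs1B8. In gs2_B4 and gs1_B11, whose median was below 0, the shift raises every value by construction. The falls of S100a10 and S100a11 there therefore had to narrow, while the S100a1 value in gs2_B4 widened from 0.11 to 0.28. S100a10 lay at -0.45 in gs2_B4 and -0.24 in gs1_B11 relative to the chromosome, and S100a11 at -0.25 and -0.15. S100a14 lay at -2.775 and -2.225 in these clones and at 2.37 in gs2_F6. The part of the chromosome-wide values in the S100 values was not tested.

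Within 250000 bases of the cluster, Chtop, an RNA export factor 12.1 kb to the left of S100a1, had log2 fold changes of -0.25 ± 0.04 in gs2_B4 (adjusted p = 2.7e-05), -0.37 ± 0.04 in gs1_B11 (adjusted p = 2.9e-07), 0.01 ± 0.04 in gs1B8 (adjusted p = 0.9) and -0.04 ± 0.04 in gs2_F6 (adjusted p = 0.48). Chtop is 1 of 10 tested non-S100 genes within 250000 bases of the run from S100a1 to S100a6. Their median was -0.247 in gs2_B4, -0.435 in gs1_B11, 0.005 in gs1B8 and 0.018 in gs2_F6. In gs2_B4 5 of the 10 were called lower and 0 higher, where 26.3% of all genes were called lower. In gs1_B11 7 were called lower and 1 higher, against 25.9% lower. S100a3, between S100a14 and S100a4, moved further than Chtop and than that median in gs2_B4 and gs1_B11. It was at 7.763, 8.518 and 9.556 CPM in parental cells, at 1.265, 0.8679 and 0.9219 CPM in gs2_B4 (log2 -3.08 ± 0.21, adjusted p = 1.2e-10) and at 1.499, 1.732 and 1.6 CPM in gs1_B11 (log2 -2.41 ± 0.19, adjusted p = 2.9e-09). In gs1B8 S100a3 had a log2 fold change of -0.685 ± 0.16 (adjusted p = 0.0031), and in gs2_F6 it overlapped parental cells (log2 -0.02 ± 0.16, adjusted p = 0.94). The Mff clones held S100a3 at means of 2.089 and 4.343 CPM, in both cases below the parental libraries. S100a7a, to the right of S100a6, had a mean of 77.37 CPM in gs1_B4 and 17.89 CPM in gs1_C8, on opposite sides of the parental 36.58 ± 6.92 CPM. Tchh, the nearest tested gene before S100a11, was higher in gs2_B4 (log2 0.97 ± 0.21, adjusted p = 0.00057) and gs1_B11 (log2 1.38 ± 0.21, adjusted p = 1.4e-05), where S100a11 was lower. It was also higher in gs2_F6 (log2 1.23 ± 0.21, adjusted p = 0.0001), where S100a11 was higher too. In gs1B8 it was not called (log2 0.50 ± 0.22, adjusted p = 0.091). Its log2 fold changes in gs1_B4 and gs1_C8, given without a test, were 1.19 and 2.04.

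**Figure D4:**
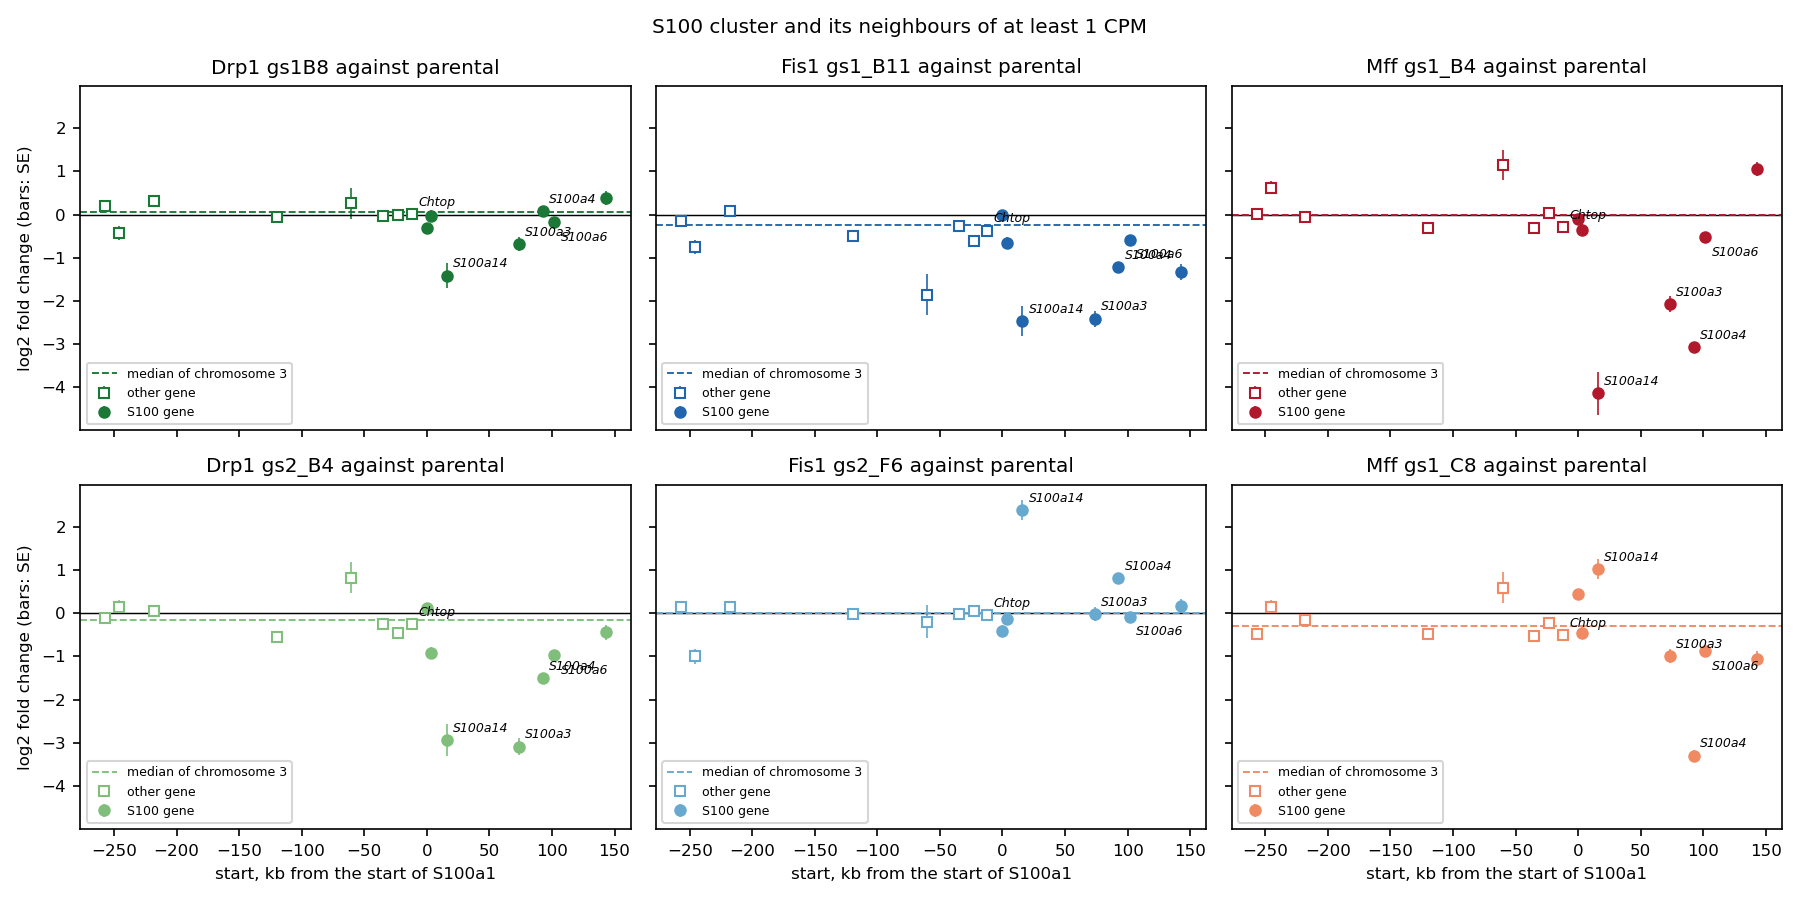
Log2 fold change against parental cells (bars: SE) by the distance of a gene's start from that of S100a1 in kb, for 6 clones. Shown are S100 genes (filled circles) and other genes (open squares) of at least 1 CPM around the run from S100a1 to S100a6. S100a10, S100a11 and Tchh lie beyond the plotted range. The dashed line is the median of chromosome 3. Chtop lies at -0.25 in gs2_B4 and S100a4 at -1.51, and S100a14, S100a3 and S100a4 are the lowest points in gs1_B4.

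Across the 9 group means of log2 CPM, S100a6, S100a10, S100a11 and S100a13 varied together and S100a1 ran opposite to the 6 other tested members. Pearson's r, given as a description over 9 groups that share the parental cells and the library scaling, was 0.886 for S100a10 with S100a11 and 0.872 for S100a6 with S100a13. Of the 21 pairs of the 7 tested members, 11 had an r above 0.5, and the 6 pairs below 0 were those of S100a1 (r from -0.151 to -0.718). S100a4 had its closest family match in S100a6 (r = 0.768), which ranked 257 of 9746 genes of at least 5 CPM. The 5 genes most like S100a4 were Ehmt2 (r = 0.973), a histone methyltransferase, Aldh16a1 (0.967), 0610010K14Rik (0.962), Ubqln4 (0.956) and Birc5 (0.946), which encodes survivin. Their ranges were far narrower: Ehmt2 went from 68.9 CPM in gs1_B4 to 105.0 CPM in gs2_F6, where S100a4 went from 76.14 to 1114 CPM.

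Known binding partners of S100 proteins did not move in 1 direction. Of 30 listed genes, annexins among them, 26 were tested in the knockout arm. In both Drp1 clones 5 were called higher and 5 lower, where the shares over all genes were 7.94% and 12.1%. Anxa8 rose from 31.6 to 52.9 (gs1B8) and 52.6 CPM (gs2_B4), and Plau, the urokinase gene, from 227.0 to 321.0 and 425.0 CPM. Anxa6 fell from 85.9 to 52.4 and 56.6 CPM, and Anxa9 from 3.91 to 2.80 and 2.20 CPM. Anxa1, the partner of S100A11, was also called lower in both Drp1 clones (1820 to 1380 and 1100 CPM) and higher in both Fis1 clones (2120 and 2670 CPM).

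In both Fis1 clones 4 partners were called higher and 3 lower, where 5.94% and 9.02% of all genes were. Plat, tissue plasminogen activator, fell from 3.33 to 1.54 (gs1_B11) and 1.46 CPM (gs2_F6), Anxa6 to 58.5 and 67.2 CPM, and Anxa8 rose to 48.5 and 81.5 CPM. Anxa2, the partner of S100A10, rose from 1200 to 1310 and 1500 CPM (log2 0.135 ± 0.05 and 0.32 ± 0.05, the larger adjusted p being 0.019). Myh9, the myosin heavy chain that S100A4 binds, rose in both Drp1 clones from 539.0 to 638.0 and 711.0 CPM (larger adjusted p = 0.032). With leflunomide 0 of 25 tested partners were called, and their median log2 fold change was -0.005, against 0.004 for all genes.

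Other EF-hand calcium-binding proteins likewise moved in either direction in the clones. Of 24 listed genes 22 were tested. In both Drp1 clones 3 were called higher and 2 lower, where 7.94% and 12.1% of all genes were, and in both Fis1 clones also 3 and 2, where 5.94% and 9.02% were. In both Drp1 clones Nucb2, a Golgi calcium-binding protein, rose from 27.1 to 35.8 and 45.4 CPM, Sri (sorcin) from 65.2 to 89.5 and 77.6 CPM and Micu2, a regulator of the mitochondrial calcium uniporter, from 77.8 to 90.3 and 106.0 CPM, while Gca (grancalcin) fell from 19.8 to 13.7 and 15.9 CPM. In both Fis1 clones Gca fell to 9.87 and 16.4 CPM, and the calpain genes Capn2 (252.0 to 297.0 and 307.0 CPM) and Capns1 (104.0 to 135.0 and 121.0 CPM) rose. With leflunomide 3 of 22 were called higher, where 2.79% of all genes were called in either direction: Nucb2 (22.6 to 43.5 CPM, adjusted p = 0.0099), Micu2 (78.2 to 105.0 CPM, adjusted p = 0.015) and Nucb1 (42.1 to 55.5 CPM, adjusted p = 0.031). Without DMSO replicate 3, the library with the high ribosomal RNA share, 1 of the 3 passed, Nucb2 (log2 0.95, adjusted p = 0.014).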

How the data were processed

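Per the submitters' processing notes, the authors used Trimmomatic 0.35 and RSEM with build GRCm38 (mm10). Which aligner and RSEM version were used is not given in the sources used here. Libraries were made with a KAPA RNA HyperPrep kit after polyA selection, per the labels' protocols. The deposited table holds expected counts per gene with no normalization between libraries. They were rounded to whole numbers (91.5% already were). RSEM divides reads shared by similar or overlapping genes by an estimate.

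Libraries were grouped by the column names and numbered by order within a group. The members and gene lists were chosen with earlier results of these data known. In R 4.3.3, edgeR 4.0.16 (filterByExpr, TMM, two-sided quasi-likelihood F test, Benjamini-Hochberg over all genes, threshold 0.05) fitted the 21 knockout-arm libraries together (13940 genes), the 6 drug-arm libraries alone (12603) and counts summed per clone (15513). The procedure was tested on simulated data. CPM levels use 1 TMM scaling over 27 libraries; length correction used the longest basic coding transcript of GENCODE M21.

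Named genes were the 8 members, other S100 genes of at least 1 CPM, the nearest tested genes around the cluster, the 5 genes most correlated with S100a4, and up to 4 per list with the largest change by the smaller of the 2 clones; Anxa1, Anxa2 and Myh9 were added after their values were seen. Single values of some listed genes are not reported here. Alternatives were DESeq2 1.42.0, its size factors, no low-count filter, a block, all 27 libraries in 1 fit, ribosomal RNA genes left out, libraries as clone replicates, and each library left out; merged exon lengths, S100a4 summed with Gm42674, and the lists without DMSO replicate 3 were added after seeing the data. Motifs and promoters came from RefSeq tables (Python 3.11.15, pandas 2.3.3, numpy 2.4.6, matplotlib 3.10.9).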

Additional observations from a re-analysis of the deposited data

Results flagged for a closer look

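Clones made to lack the same gene differed from each other in 19 tested values of S100 members, each a log2 fold change in edgeR's contrast of the 2 clones that passed an adjusted p of 0.05. For gs2_B4 against gs1B8, both lacking Drp1, these were -1.59 for S100a4, -0.793 for S100a6, -0.444 for S100a10, -0.507 for S100a11, -0.891 for S100a13, -1.526 for S100a14 and 0.428 for S100a1. For gs2_F6 against gs1_B11, both lacking Fis1, they were 2.036 for S100a4, 0.501 for S100a6, 0.71 for S100a10, 0.691 for S100a11, 0.521 for S100a13, 4.842 for S100a14 and -0.395 for S100a1. For gs1_C8 against gs1_B4, both lacking Mff, they were 5.153 for S100a14, 0.551 for S100a1, -0.359 for S100a6, -0.322 for S100a10 and -0.77 for S100a11. Each contrast tested 7 members. Over all genes, 41.0% were called between the Drp1 clones, 47.6% between the Fis1 clones and 54.7% between the Mff clones. The S100a1 call between the Fis1 clones was lost without gs2_F6 replicate 3 or gs1_B11 replicate 1.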

How the results depend on the processing

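The counts of members called kept within 1.5 times their value in 86 fits with 1 choice changed and moved further in 12, and no member's log2 fold change changed sign with its call in any fit run. In gs1B8 the count rose from 1 to 3 without the low-count filter. In gs2_F6 it was 3 to 4, in place of 5, when a library was left out. With leflunomide it was 0 with DESeq2 size factors, 2 with all 27 libraries in 1 fit, and 0 to 1 when a library was left out. For Drp1 against Fis1 it was 5, in place of 0, with libraries as replicates, a fit that called 5126 of 13940 genes. Of the tested single log2 fold changes, 655 stayed on their side of the threshold, 14 passed only under the alternative and 18 passed only in the reported fit, and the 174 values given without a test kept their sign. With the serial run of columns as a replicate block, the count was 3 in gs1B8 and 0 with leflunomide. Nothing in the labels pairs the libraries of a run: their deviations from the group means correlated by 0.051 on average in the knockout arm (63 pairs, from -0.081 to 0.17) and by 0.111 in the drug arm. The cause of these changes was not tested. Depth limits S100a16 and S100a14, whose counts were at most 13 and, in gs1_B4, at most 6 per library.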
